A study of Saccharomyces cerevisiae with 24 samples.

Results

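The aryl-alcohol dehydrogenase (AAD) family of *Saccharomyces cerevisiae* was followed during recovery from irradiation with a UV laser. The family was taken as the 5 genes *AAD3*, *AAD4*, *AAD10*, *AAD14* and *AAD15*, found by gene name among the 6427 rows of each of the 4 time-point tables, and all 5 were present in every table. A further copy, *AAD6*, was not analysed here because no row carried its name. Cells of strain BY4741, a haploid MATa laboratory strain with deletion alleles of *HIS3*, *LEU2*, *MET15* and *URA3*, were grown in YEPD, moved to phosphate-buffered saline and chilled. Each of 3 cultures was divided into a laser portion, irradiated for 30 s, and a control portion that was left on ice, and both were then returned to fresh warm YEPD. Poly(A) RNA was sequenced from laser irradiated and control cells at 0, 15, 30 and 60 min after the transfer (T0, T15, T30 and T60), which gives 8 groups of 3 libraries. T0 cells were also transferred, so a laser library at T0 was already irradiated. During irradiation the laser portion was spread over small tubes, each set in a pre-chilled freezer block, whereas the control portion stayed undivided on ice. Light and this handling, with any difference in temperature, cannot be told apart.

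The AAD proteins are putative oxidoreductases of the aldo-keto reductase superfamily, named for their likeness to an aryl-alcohol dehydrogenase of the lignin-degrading fungus *Phanerochaete chrysosporium*. Enzymes of this kind use NADPH to turn aromatic aldehydes into the matching alcohols. In yeast the copies lie near chromosome ends, and *AAD4* and *AAD6* are known to respond to oxidants such as diamide and hydrogen peroxide through Yap1, the transcription factor of the oxidative stress response. The natural substrates of the yeast proteins are not well known.

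The 24 libraries held 2570500 to 5394000 reads, with a median of 3807750, a depth worked out from the smallest steps between RPKM values. RPKM is the read count of a gene scaled by its length and by the reads of its library, so a change in an AAD transcript cannot be told apart from a change in the remaining mRNA of the cell. *LEU2* and *URA3* sat at the lowest value of the tables (0.021 RPKM, a gene with no reads) in all 24 libraries, and *STE2*, the α-factor receptor of MATa cells, had at least 201.8 RPKM. *HIS3*, at 105.8 to 168 RPKM, and *MET17*, another name of *MET15*, at 31.2 to 482 RPKM, had reads in every library, which goes against full deletion of these 2 genes. The library of control replicate 1 at T0 stood apart from the other control libraries at T0. In it 6.56% of 5671 genes were at least 2-fold below both others, against 0.176% for replicate 2 and 0.758% for replicate 3.

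The members are close copies, and this bears on every value that follows because a read that fits 2 copies could be assigned to either. In the R64 (S288C) assembly *AAD3* is at chrIII:313890-314981 (+), *AAD4* at chrIV:17577-18566 (−), *AAD10* at chrX:727405-728271 (+), *AAD14* at chrXIV:16118-17248 (−) and *AAD15* at chrXV:1647-2078 (−). Each is annotated as a gene of a single exon, and none is overlapped by another annotated gene. *AAD3* ends 1639 bases and *AAD15* ends 1646 bases from a chromosome end, and the other 3 are 16117 to 17576 bases from one. The coding sequence, stop codon included, has 1131 bases in *AAD14*, 1092 in *AAD3*, 990 in *AAD4*, 867 in *AAD10* and 432 in *AAD15*. *AAD6*, at chrVI:14305-15431 (−), is annotated as a pseudogene.

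The stretch below is the first run of 75 aligned coding bases that all 6 copies hold without a gap, and it shows how little sets the copies apart in this part of the gene. Each line is RefSeq R64 sequence of the gene's own strand, and capitals mark the bases that differ from the most frequent base of the 6 copies.
AAD3: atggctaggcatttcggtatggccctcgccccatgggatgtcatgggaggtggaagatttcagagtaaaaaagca
AAD15: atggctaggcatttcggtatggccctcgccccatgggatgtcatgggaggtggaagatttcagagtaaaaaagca
AAD6: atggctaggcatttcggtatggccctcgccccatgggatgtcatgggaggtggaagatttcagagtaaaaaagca
AAD14: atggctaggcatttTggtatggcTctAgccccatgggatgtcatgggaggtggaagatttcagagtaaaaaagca
AAD4: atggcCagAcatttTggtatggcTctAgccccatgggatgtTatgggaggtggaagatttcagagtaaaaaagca
AAD10: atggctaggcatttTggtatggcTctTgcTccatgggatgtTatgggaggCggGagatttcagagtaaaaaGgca
*AAD3*, *AAD15* and *AAD6* are identical here, *AAD14* differs at 3 bases, *AAD4* at 6 and *AAD10* at 8. The annotated start of *AAD15* is base 1 of this stretch, whereas it begins at base 661 of *AAD3* and base 670 of *AAD14*, so *AAD15* holds the 3′ part of the gene only.

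Over the whole coding sequence *AAD4* and *AAD14* shared 90.8% of 988 aligned bases, *AAD4* and *AAD6* 89.7% of 987, and *AAD3* and *AAD15* 97.7% of 432. *AAD3* and *AAD6*, identical in the stretch above, shared 86.3% of 1071. *AAD10* was the most distant copy, with 77.1% to 86.4% identity to the others. Of all windows of 75 bases, 14.4% in *AAD3*, 9.5% in *AAD4*, 1.89% in *AAD14* and 10.9% in *AAD15* occurred unchanged elsewhere in the genome, in each case in another AAD copy. No window of *AAD10* did. *AAD4* and *AAD14* shared no such window with each other, while *AAD4* shared 61 with *AAD6* and 29 with *AAD3*, so reads from *AAD6* that fell in them could be counted as *AAD4*. How the counting treated reads with more than 1 place is not given in the sources used here.

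The Yap1 site, searched as TTACTAA or its reverse complement TTAGTAA, was not found in the 300 bases upstream of any of the 5 members, and 7.82% of 6001 annotated protein-coding genes hold it there. In the 600 bases upstream, a length chosen after the shorter window had been seen, *AAD4* was the 1 member with matches, 2 of them, at 453 and 356 bases before the annotated start, and 13.7% of 5999 windows of that length hold at least 1. *AAD6* had 2 matches, at 242 and 223 bases. The lines below show both places, with the matches in capitals, at chrIV:18907-19026 (−) and chrVI:15642-15681 (−) of R64.
AAD4: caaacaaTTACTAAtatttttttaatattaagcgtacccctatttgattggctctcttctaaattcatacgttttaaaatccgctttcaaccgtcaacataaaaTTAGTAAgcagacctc
AAD6: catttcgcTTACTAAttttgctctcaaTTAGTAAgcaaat
The *AAD4* stretch also holds CCCCT, the reverse complement of the stress element AGGGG, 424 bases before the start, and no other member had AGGGG or CCCCT within 600 bases, against 39.7% of all windows of that length. The annotated start of *AAD4* is not where the likeness to *AAD14* ends. The 133 bases before it aligned in phase to bases 6 to 138 of *AAD14* at 96.2% identity, with the nearest in-frame stop 264 bases upstream of the annotated start. For *AAD10* the 264 bases before the annotated start aligned in phase to bases 1 to 264 of *AAD14* (79.4% of 262 aligned bases). Most of the 300-base window of *AAD10* is thus like coding sequence, and the lack of matches there is not a result about a promoter. Matches of this kind describe letters only.

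At T0 the family stood at like levels in laser irradiated and control cells. *AAD10* was the most abundant member in laser irradiated cells, at 35.4 ± 2.02 RPKM (SD, n = 3), where its values did not overlap those of *AAD14*, the next in order, at 18.1 ± 0.990 RPKM. *AAD4* followed at 14.14 ± 2.06 RPKM and *AAD3* at 12.9 ± 2.70 RPKM, and the values of these 2 overlapped. In control cells the order of means was *AAD10* at 33.5 ± 16.6, *AAD14* at 17.5 ± 2.84, *AAD3* at 13.8 ± 2.89 and *AAD4* at 13.02 ± 2.43 RPKM, and every neighbouring pair among these 4 overlapped. *AAD15* was near the limit of detection throughout, with 33 reads over all 24 libraries, against 1771 to 2236 for each of the other members.

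The laser effect, laser minus control on log2(RPKM + 1), was estimated at each time point by limma, and a gene counted as called where its p, adjusted by Benjamini-Hochberg over all genes tested, was under 0.05 and its difference on that scale was at least 2-fold. At T0 none of the 5 members was called, none had an unadjusted p under 0.05, and 0.017% of 5884 genes were called higher. *AAD4* had 16.5, 13.2 and 12.7 RPKM in laser irradiated cells, against 10.2, 14.4 and 14.4 RPKM in control cells. The difference of 0.12 had a 95% interval of −0.42 to 0.66 on the log2 scale. For *AAD14* the interval was −0.41 to 0.51, and for *AAD3* −0.66 to 0.50. *AAD10* was less well measured, with an interval of −0.68 to 1.14, since its control values at T0 were 14.4, 43.5 and 42.6 RPKM, the lowest in the library that stood apart.

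**Figure D1:**
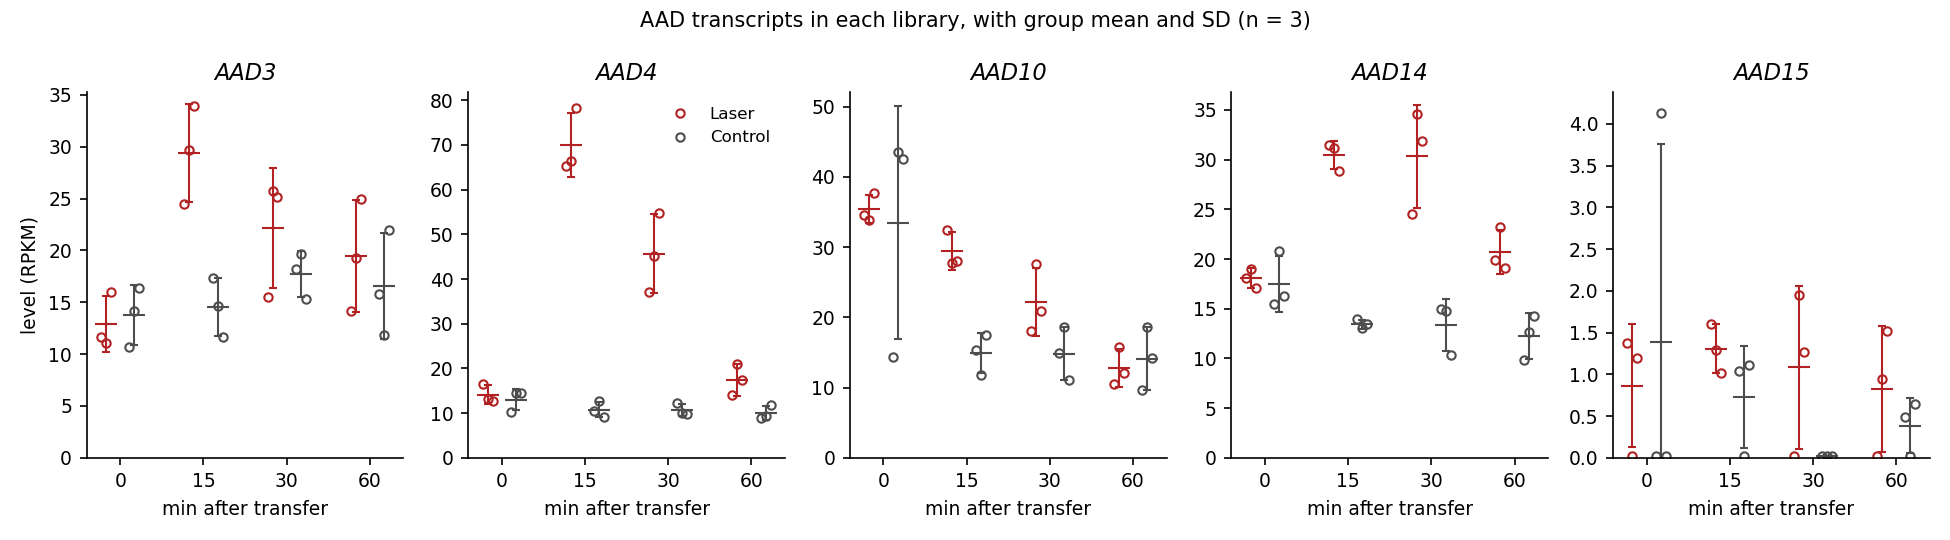
Level of each AAD transcript in RPKM, on a linear axis that differs between panels, against minutes after transfer to fresh medium. Circles are single libraries, laser irradiated in red at the left and control in grey at the right of each time, with the mean and SD of 3 libraries; *AAD4* reached 65.3 to 78.4 RPKM in laser irradiated cells at T15, against 9.25 to 12.6 RPKM in control cells, and *AAD15* stayed below 5 RPKM in every library.

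At T15, 4 members passed the p threshold, all in the direction of laser irradiated cells, and *AAD4* had the largest difference of the family. *AAD4* had 65.3, 66.4 and 78.4 RPKM in laser irradiated cells, from 235 to 354 reads a library, against 10.4, 12.6 and 9.25 RPKM in control cells, from 38 to 46 reads. Every laser library lay far above every control library. The means were 70.0 ± 7.24 RPKM in laser irradiated cells and 10.8 ± 1.71 RPKM in control cells (SD, n = 3 each), a ratio of 6.5, and *AAD4* was called higher with a log2 difference of 2.60 (SE 0.22, adjusted p = 2.09e-05). Only 0.679% of the 5887 genes tested had a larger difference.

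*AAD14*, the longest copy, had 31.4, 31.2 and 28.9 RPKM in laser irradiated cells at T15, against 13.92, 13.03 and 13.42 RPKM in control cells. The groups were tight and did not overlap, and *AAD14* was called higher, by 1.12 on the log2 scale (SE 0.22, adjusted p = 0.00351). *AAD3* had 24.5, 29.7 and 33.9 RPKM in laser irradiated cells, against 17.3, 14.7 and 11.7 RPKM in control cells. *AAD10* had 32.5, 27.8 and 28.1 RPKM in laser irradiated cells, against 15.3, 11.8 and 17.5 RPKM in control cells. Neither pair of groups overlapped and both passed the p threshold, *AAD3* with a difference of 0.97 (SE 0.25, adjusted p = 0.0144) and *AAD10* with 0.95 (SE 0.24, adjusted p = 0.0134), but both fell just short of 2-fold on the log2(RPKM + 1) scale and were not called. The ratios of their linear means were 2.02 and 1.98. *AAD3* was called with a pseudocount of 0.1 (1.01, adjusted p = 0.0147), without laser replicate 1 (1.09, adjusted p = 0.0258) and without control replicate 1 (1.10, adjusted p = 0.0292), and *AAD10* without control replicate 3 (1.07, adjusted p = 0.00581).

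In all, 2 of the 5 members were called higher at T15 and 4 passed the p threshold at any fold, where 12.3% and 22.6% of all genes did. The laser libraries lay above all control libraries in 4 of 5 members, as they did for 34.2% of genes. The median of all genes at T15 was itself 0.29 above 0, and *AAD4* and *AAD14* stood 2.31 and 0.83 above that median. After rescaling of each library by the median ratio, which brought that median to −0.02, *AAD4* remained called with a difference of 2.28 (adjusted p = 6.32e-04). *AAD14* then had 0.81 (adjusted p = 0.0106), below the 2-fold limit, and *AAD3* 0.66 (adjusted p = 0.0634).

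At T30 *AAD4* and *AAD14* were again called, and the other members were not. *AAD4* had 37.0, 45.2 and 54.7 RPKM in laser irradiated cells, against 12.2, 10.1 and 9.92 RPKM in control cells, a log2 difference of 1.98 (SE 0.25, adjusted p = 4.95e-04). *AAD14* had 24.5, 34.6 and 31.9 RPKM in laser irradiated cells, against 15.0, 14.8 and 10.3 RPKM in control cells, a log2 difference of 1.13 (SE 0.27, adjusted p = 0.0150). Both were called higher, 2 of the 4 members tested, where 10.6% of 5871 genes were. The call of *AAD14* was lost without laser replicate 2 (1.03, adjusted p = 0.102) and without control replicate 3 (0.97, adjusted p = 0.0677), and after rescaling its difference was 0.95 (adjusted p = 0.0179).

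*AAD3* and *AAD10* no longer passed the test at T30. *AAD3* had 15.5, 25.8 and 25.2 RPKM in laser irradiated cells, against 18.3, 19.7 and 15.3 RPKM in control cells, which overlap (0.28, 95% interval −0.34 to 0.89, adjusted p = 0.580). *AAD10* had 18.02, 27.58 and 20.94 RPKM in laser irradiated cells, against 14.92, 18.60 and 11.02 RPKM in control cells, and was higher in 3 of 3 cultures, but the groups overlapped (0.56, 95% interval −0.08 to 1.19, adjusted p = 0.242). In both members the interval included 0.

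At T60 no member was called by limma, where 0.187% of 5877 genes were called higher. Of the 4 members tested, 2 had an unadjusted p under 0.05. The share of all genes at that threshold is not given here, nor for the other counts at an unadjusted p. *AAD4* had 13.97, 21.00 and 17.40 RPKM in laser irradiated cells, against 8.83, 9.42 and 11.8 RPKM in control cells. *AAD14* had 19.9, 23.2 and 19.1 RPKM in laser irradiated cells, against 9.81, 12.7 and 14.3 RPKM in control cells. In both the laser libraries remained above every control library, as was so for 9.68% of genes, with differences of 0.73 for *AAD4* (SE 0.29, adjusted p = 0.498) and 0.72 for *AAD14* (SE 0.27, adjusted p = 0.460). With the culture as a block the same differences reached adjusted p = 0.0175 and adjusted p = 0.0124, still under 2-fold. Over all genes that fit called 135 higher and 49 lower, against 11 and 3 without the block. *AAD3*, at 14.2, 19.2 and 24.95 RPKM in laser irradiated cells and 15.8, 11.9 and 22.0 RPKM in control cells, and *AAD10*, at 10.5, 15.8 and 12.1 RPKM in laser irradiated cells and 9.59, 18.6 and 14.2 RPKM in control cells, overlapped between the groups.

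**Figure D2:**
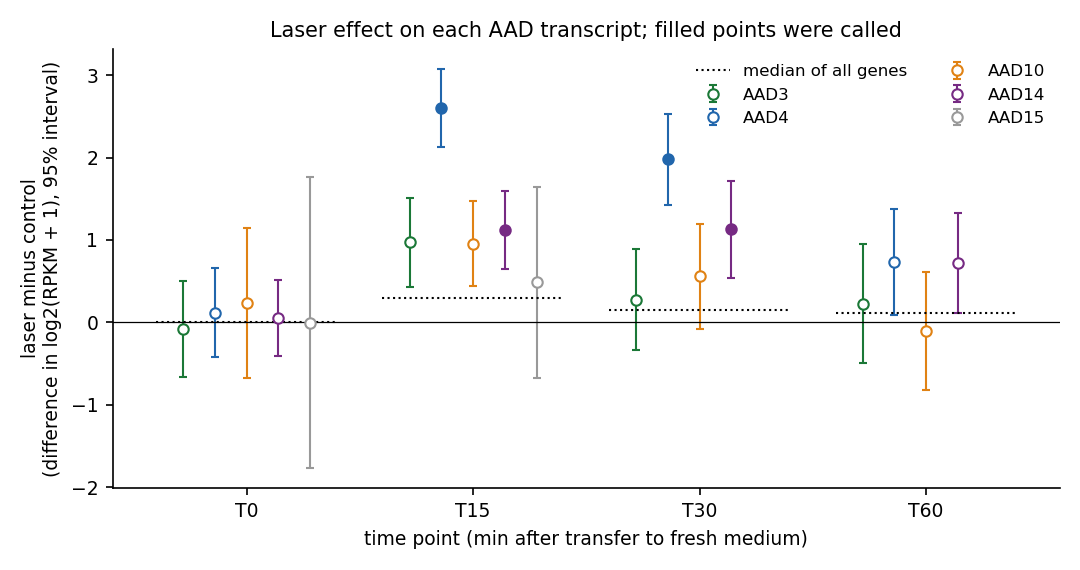
Laser effect on each AAD transcript, laser minus control in log2(RPKM + 1), with its 95% interval from limma at each time point; filled points were called (adjusted p under 0.05 and 2-fold) and dotted lines are the median of all genes tested. *AAD4*, at 2.60 and 1.98, and *AAD14*, at 1.12 and 1.13, were called at T15 and T30, and *AAD15* was tested at T0 and T15 only because too few libraries reached 1 RPKM later.

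The course within each treatment was read from 1 fit of all 24 libraries. In laser irradiated cells between T0 and T15, *AAD4* rose by 2.23 on the log2 scale (SE 0.21, adjusted p = 2.45e-07) and *AAD3* by 1.13 (SE 0.26, adjusted p = 0.00587), 2 of 5 members called higher where 2.75% of 6146 genes were. *AAD3* lost its call without replicate 2 in every group (1.02, adjusted p = 0.296), where 27 genes were called higher against 169 with all libraries. *AAD14* had a difference of 0.72 (SE 0.20, adjusted p = 0.0166), under 2-fold. *AAD10* was not called, with a difference of −0.26 (95% interval −0.93 to 0.41). Between T15 and T30 no member was called in laser irradiated cells, where 1.66% of genes were in either direction, and 1, *AAD4*, had an unadjusted p under 0.05 (−0.62, adjusted p = 0.139). Between T30 and T60 *AAD4* fell by 1.34 (SE 0.21, adjusted p = 1.53e-04), the 1 member called lower, where 5.09% of genes were. Without replicate 2 that change was −1.47 with adjusted p = 0.0501, where 69 genes were called lower against 313 with all libraries.

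In control cells *AAD10* was the 1 member with a difference between time points that passed the p threshold. From T0 to T15 none of the 5 members was called in control cells, where 12.1% of genes were called lower, and 1, *AAD10*, had an unadjusted p under 0.05. *AAD10* averaged 14.9 ± 2.86 RPKM in control cells at T15, against 33.5 ± 16.6 RPKM at T0, a log2 difference of −0.98 (SE 0.32, adjusted p = 0.0258) that fell just short of 2-fold. Without control replicate 1 at T0, an alternative chosen after seeing the data, the difference was −1.49 (SE 0.27, adjusted p = 2.75e-04), and *AAD10* was called lower. In laser irradiated cells *AAD10* had 29.4 ± 2.65 RPKM at T15, 22.2 ± 4.90 RPKM at T30 and 12.8 ± 2.68 RPKM at T60, against 35.4 ± 2.02 RPKM at T0, and its steps between time points there were not called. From T15 to T30 and from T30 to T60 no member was called in control cells and none had an unadjusted p under 0.05, where 2.99% and 0.797% of genes were called in either direction. *AAD4* stayed between 8.83 and 12.6 RPKM in all 9 control libraries after T0.

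Whether the laser effect itself changed was tested as an interaction, called at an adjusted p under 0.05 at any fold. From T0 to T15 the laser effect grew by 2.48 for *AAD4* (SE 0.30, adjusted p = 3.15e-05) and by 1.07 for *AAD14* (SE 0.28, adjusted p = 0.0246), and 4.6% of 6146 genes were called in that direction. Without replicate 2 neither interaction was called (*AAD4* 2.51, adjusted p = 0.0736, *AAD14* 0.95, adjusted p = 0.782). That fit has 2 libraries a group and over all genes called 3 higher and 0 lower, against 283 and 18 with all libraries. Without replicate 3 the interaction of *AAD14* was not called (1.11, adjusted p = 0.146). After rescaling that of *AAD14* was 0.80 (adjusted p = 0.0532). For *AAD3* the growth of 1.05 was not called (SE 0.37, adjusted p = 0.111) but was with the culture as a block (SE 0.32, adjusted p = 0.0272). For *AAD10* it was 0.72 (SE 0.45, adjusted p = 0.403), and 1.23 (SE 0.36, adjusted p = 0.0377) without control replicate 1 at T0. Between T15 and T30 no interaction of a member was called, against 0.537% of genes in either direction, and 1, that of *AAD4*, had an unadjusted p under 0.05 (−0.62, adjusted p = 0.877). Between T30 and T60 the laser effect on *AAD4* changed by −1.24 (SE 0.30, adjusted p = 0.0247), where 2.51% of genes were called in that direction, while for *AAD14* the change was −0.41 (95% interval −0.98 to 0.17, adjusted p = 0.651). The change for *AAD4* was not called without replicate 2 (−1.37, adjusted p = 0.612) or without replicate 3 (−0.95, adjusted p = 0.386). Over all genes these fits called 0 higher and 1 lower, and 10 and 49, against 16 and 154 with all libraries.

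Since close copies may share reads, the RPKM of the 5 members was also summed within each library. The sum does not settle reads shared with *AAD6*, which has no row. *AAD6* shared 72 windows of 75 bases with *AAD3*, 61 with *AAD4* and 28 with *AAD15*, and reads from it could be counted in the sum. The sum was 82.4, 77.2 and 84.7 RPKM in laser irradiated cells at T0, against 50.8, 97.0 and 89.8 RPKM in control cells. At T15 it was 155.3, 156.4 and 170.2 RPKM in laser irradiated cells, against 58.0, 52.2 and 53.0 RPKM in control cells, and at T30 it was 95.1, 135.1 and 134.0 RPKM in laser irradiated cells, against 60.4, 63.2 and 46.6 RPKM in control cells. Neither pair of groups overlapped, whereas at T60 they did, at 58.6, 80.17 and 75.02 RPKM in laser irradiated cells and 44.6, 52.6 and 62.9 RPKM in control cells. The mean difference between laser irradiated and control cells was 106.3 RPKM at T15, of which *AAD4* made up 55.8%, *AAD14* 16.0%, *AAD3* 13.96%, *AAD10* 13.7% and *AAD15* 0.545%. At T30 it was 64.6 RPKM, with 54.0% from *AAD4*, 26.2% from *AAD14*, 11.4% from *AAD10* and 6.79% from *AAD3*.

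*AAD4* held a larger part of the family sum in laser irradiated cells than in control cells after T0. It made up 43.5% ± 2.20 of the sum in laser irradiated cells at T15, against 19.9% ± 3.74 in control cells (SD, n = 3 each), and 37.8% ± 3.84 in laser irradiated cells at T30, against 19.2% ± 2.81 in control cells. A share within a library does not move with the scaling between libraries. At T0 the shares were 17.4% ± 2.52 in laser irradiated cells and 17.03% ± 2.76 in control cells, and at T60 they were 24.4% ± 1.58 in laser irradiated cells and 18.9% ± 0.961 in control cells. The groups did not overlap at T15, T30 or T60, with an exact two-sided permutation p = 0.1 at each, the smallest that 3 against 3 allows (adjusted over 4 comparisons p = 0.133), and p = 0.8 at T0. The permutation did not use the pairing by culture. Only the share of *AAD4*, the member with the largest difference at T15, was tested. Its larger share follows from the member values above and is not separate support for them. Of the mean difference in RPKM at T15, 58.9% was left at T30 and 12.53% at T60 for *AAD4*, against 99.6% and 49.8% for *AAD14*, and these shares were not tested against each other.

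**Figure D3:**
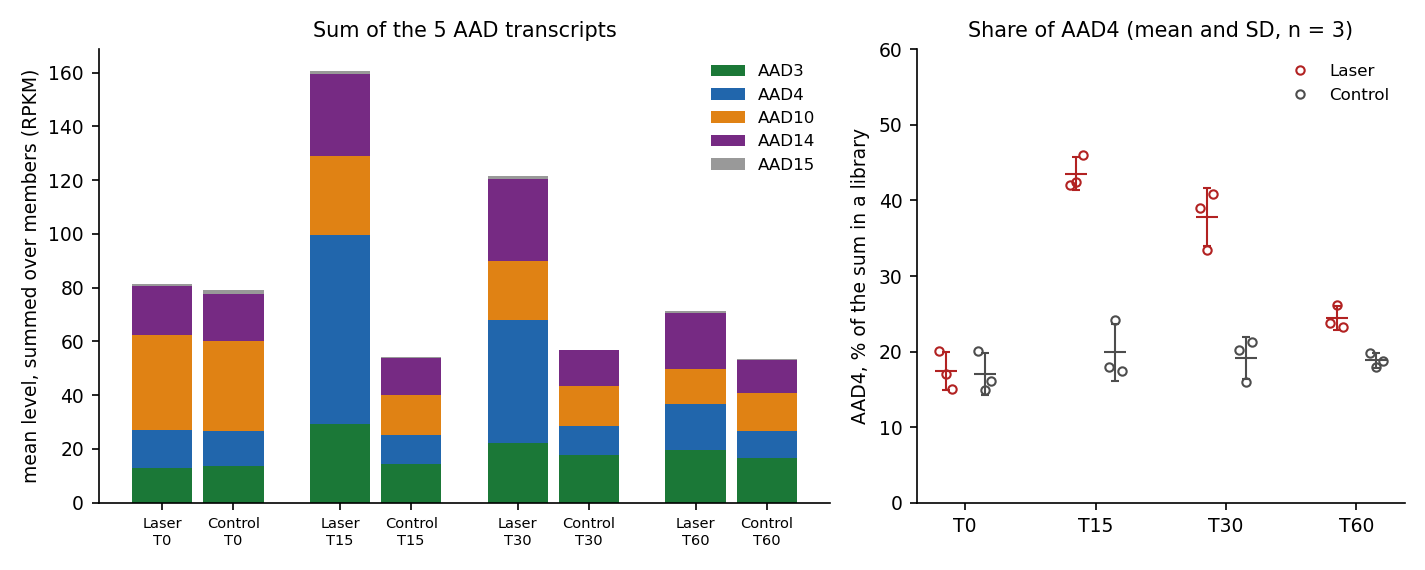
Left, mean RPKM of the 5 AAD transcripts stacked for each group of 3 libraries; right, share of *AAD4* in the sum of each library in percent, with mean and SD, laser irradiated in red and control in grey. The stack of laser irradiated cells was tallest at T15, and the share of *AAD4* was 42.0% to 46.0% in laser irradiated cells at T15, against 17.4% to 24.2% in control cells.

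*AAD15*, the shortest copy, gave too few reads for a course. Laser irradiated cells had 4 reads in 3 libraries at T0, 7 at T15, 5 at T30 and 5 at T60, against 6, 4, 0 and 2 reads in control cells at the same times. Over all times this made 21 reads in 12 laser libraries (95% Poisson interval 13 to 32.1) and 12 reads in 12 control libraries (6.20 to 21.0), intervals that overlap and cover counting error only. With 10 of 24 libraries at no reads, 3 reads would correspond to 1.29 to 2.70 RPKM, and a difference below that level was not detectable. *AAD15* was tested at T0 and T15, where its interval at T15 was −0.67 to 1.64. The 97.7% identity with *AAD3* means that some of these reads could belong to *AAD3*.

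The genes of related function in this fit were counted in 4 lists. Other aldo-keto reductases, the superfamily to which the AAD proteins belong, were higher in 4 of 7 genes at T15 and in 6 of 7 at T30, where 12.3% and 10.6% of all genes were. The list medians were 1.22 and 1.47, beside all-gene medians of 0.29 and 0.15. *YDL124W*, an NADPH-dependent alpha-keto amide reductase, had 1352 ± 97.5 RPKM in laser irradiated cells at T15, against 388.1 ± 87.7 RPKM in control cells (1.82, adjusted p = 2.11e-04), and *YJR096W*, a xylose and arabinose reductase, had 176.5 ± 21.2 RPKM in laser irradiated cells at T30, against 36.3 ± 4.79 RPKM in control cells (2.25, adjusted p = 5.73e-05). *GRE3*, an aldose reductase, and *GCY1*, a glycerol dehydrogenase, were called at T15 (1.34 and 1.24), and *YPR1*, a reductase of aldehydes, and *ARA1*, an arabinose dehydrogenase, at T30 (1.13 and 1.47). *YPL088W*, the remaining gene of the list, was called at neither time. Its differences were 0.84 at T15 (adjusted p = 0.0237, under 2-fold) and 0.51 at T30 (adjusted p = 0.222). After rescaling 2 and 5 of the 7 were called at T15 and T30.

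Of the targets of Yap1, a list that counts *YAP1* itself, 16 of 18 were higher at T15 and 9 of 18 at T30. None was lower, and 12.3% and 10.6% of all genes were higher. The list medians were 1.52 and 0.97, beside 0.29 and 0.15 for all genes. *SRX1*, the sulfiredoxin that repairs peroxiredoxins, had 524.6 ± 105 RPKM in laser irradiated cells at T15, against 12.7 ± 8.95 RPKM in control cells. It was also the 1 target called at T0, at 275.4 RPKM in laser irradiated cells and 8.65 RPKM in control cells (4.85, adjusted p = 0.00621), while *AAD4* was not called at T0. The list median was already 0.68 at T0, beside 0.005 for all genes and 0.12 for *AAD4*. *GRE2*, a methylglyoxal reductase, *PRX1*, a mitochondrial peroxiredoxin, and *GTT2*, a glutathione transferase, had differences of 2.68, 2.61 and 2.55 at T15, beside 2.60 for *AAD4*. At T30 *PRX1* (2.97), *OYE3*, an NADPH dehydrogenase (2.92), *TRX2*, a thioredoxin (2.06), and *GRE2* (2.03) were called. With rescaling 13 and 8 of 18 were called at T15 and T30, and with the culture as a block 5 were called at T0.

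Alcohol dehydrogenases and related zinc enzymes were higher in 5 of 13 genes at T15 and 6 of 13 at T30, where 12.3% and 10.6% of all genes were, and none was lower. The list medians were 0.82 and 0.88, and after rescaling 5 and 4 of the 13 were called higher. *BDH2*, a likely butanediol dehydrogenase, was called at both times (2.33 and 2.54), as were *SOR2*, a sorbitol dehydrogenase (1.91 and 2.22), and *XYL2*, a xylitol dehydrogenase (1.50 and 2.04). *SOR1* and *SOR2* are near-identical copies, so the reads of both are uncertain. *SOR1* is counted among the genes called at both times. It averaged 3.76 and 3.43 RPKM in laser irradiated cells at T15 and T30, against 0.506 and 0.447 RPKM in control cells. It thus entered the tests because of its laser libraries. *ADH6*, an NADPH-dependent cinnamyl alcohol dehydrogenase that acts on aromatic aldehydes as the AAD proteins are thought to do, had 1465 ± 249 RPKM in laser irradiated cells at T15, against 563.9 ± 65.3 RPKM in control cells (1.37, adjusted p = 9.61e-04), and *BDH1* was called at T30 (1.02). The Ehrlich pathway turns aromatic and branched amino acids into aldehydes and then fusel alcohols. At T15, 3 of its 9 genes were higher, *ARO10*, the phenylpyruvate decarboxylase that makes the aldehyde (3.22), *ARO9*, the aromatic aminotransferase (2.69), and *BAT2*, the cytosolic branched-chain aminotransferase (1.09), and the same 3 genes were called at T30, where 12.3% and 10.6% of all genes were. The list medians were 0.81 and 0.20. *BAT1*, the mitochondrial form, had differences of −0.87 at T15 and −0.99 at T30, which passed the p threshold but not 2-fold (adjusted p = 0.0110 and adjusted p = 0.00727). After rescaling 2 genes of the list were called higher and 1 lower at T15, where *BAT2* lost its call, and 3 higher and 1 lower at T30.

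**Figure D4:**
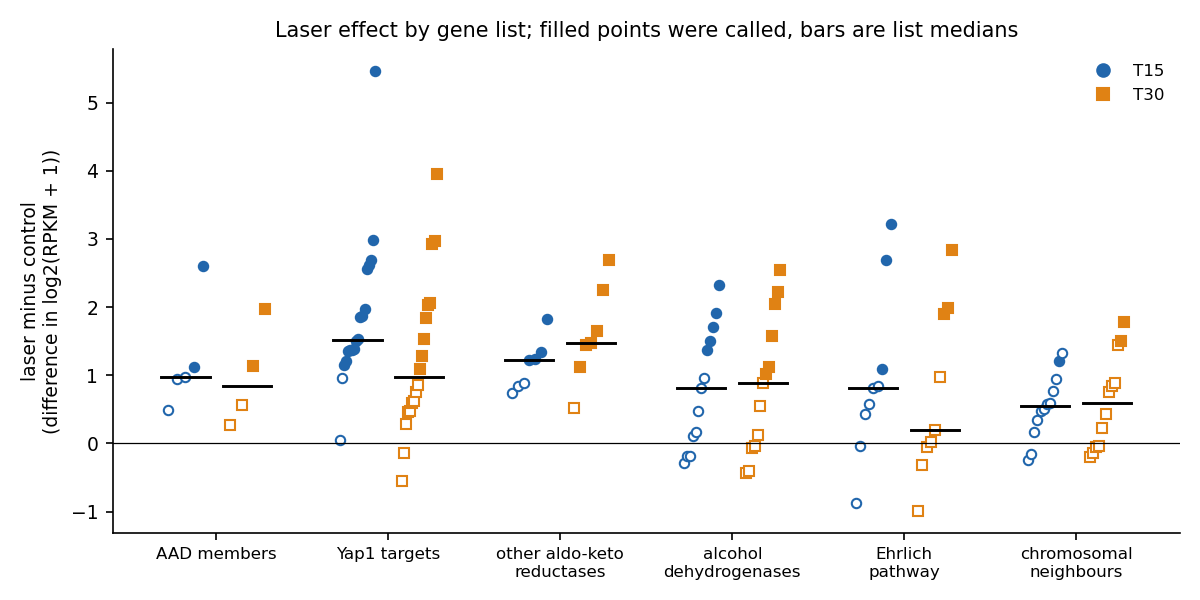
Laser effect, laser minus control in log2(RPKM + 1), of single genes in the AAD family and 5 lists at T15 (blue circles) and T30 (orange squares); filled points were called and black bars are list medians. *AAD4* lies at 2.60 and 1.98. The Yap1 targets, 16 of 18 of which were called higher at T15, run from 0.05 to 5.46 at T15. At T30 they run from −0.55 to 3.96, and both spans hold every AAD member tested.

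The genes that lie beside the members along the chromosomes were counted in the same way. Of 18 tabled neighbours, up to 2 on each side of each member, 12 could be tested at T15 and 1 was called higher, and at T30 2 of 12 were, near the 12.3% and 10.6% of all genes. After rescaling the 1 call at T15 was lost, and 1 of 12, *SNZ2*, was called at T30. *THI13*, a thiamine synthesis gene 350 bases from *AAD4*, had 8.02 ± 1.43 RPKM in laser irradiated cells at T15, against 2.89 ± 0.396 RPKM in control cells (1.21, adjusted p = 0.0216). Beside *AAD14*, *SNZ2*, a vitamin B6 synthesis gene, was called at T30 (1.78, adjusted p = 0.00282), as was *THI12* (1.50, adjusted p = 0.0474). *THI12* averaged 2.705 ± 0.813 RPKM in laser irradiated cells at T30, against 0.36 ± 0.587 RPKM in control cells. It thus entered the test only because it was high in the laser libraries, and it was not tested at T0 or T15. *THI11*, *THI12* and *THI13* are near-identical copies, so their reads cannot be placed with certainty. *YDL242W*, an uncharacterized reading frame annotated on the opposite strand 392 bases upstream of *AAD4*, where it overlaps the farther of the 2 Yap1 matches, averaged 1.58 ± 0.276 RPKM in laser irradiated cells at T15 and was listed at 0.021 RPKM in all 3 control libraries (adjusted p = 0.0779). In laser libraries at T15, 3 reads would correspond to 1.52 to 1.94 RPKM for *AAD15*, a longer gene. The level of *YDL242W* thus rests on a few reads a library, and it entered the test through its laser libraries alone. Since the use of strand in the counting is not known, reads from transcripts of *AAD4* that reach into *YDL242W* cannot be told apart from its own. At T15 *HXT15* and *HXT16*, hexose transporter genes further away, were too low to be tested. *RDS1*, the gene 433 bases before *AAD3*, had 8.06 ± 1.61 RPKM in laser irradiated cells at T15, against 5.64 ± 2.59 RPKM in control cells (0.51, adjusted p = 0.322). *RPD3* and *PEX6* beside *AAD14* had differences of 0.35 and 0.16 at T15 (adjusted p = 0.204 and adjusted p = 0.692).

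Patterns over the 24 libraries were compared by Pearson's r on log2(RPKM + 1), given as a description because the libraries share the same 8 groups and scaling. *AAD4* and *AAD14* were the most alike members (r = 0.913), followed by *AAD3* and *AAD4* (0.745), while *AAD3* and *AAD10* had 0.0891. The genes outside the family most like *AAD4*, among 6141, were *RPN12*, a subunit of the proteasome (0.948), *SGT2*, a cochaperone of tail-anchored protein targeting (0.944), and *HMX1*, the heme oxygenase (0.942), beside a median of 0.175 over all genes. For *AAD14* they were *UMP1*, a proteasome maturation factor (0.924), *HMX1* (0.923) and *FMP52* (0.921). *HMX1* had 224.7 RPKM in laser irradiated cells at T15, against 21.8 RPKM in control cells (3.31, adjusted p = 1.47e-06), and 164.9 RPKM in laser irradiated cells at T30, against 12.97 RPKM in control cells (3.53, adjusted p = 1.50e-05). *AAD10* was most like *XKS1*, the xylulokinase (0.910), *GPA2*, a G protein alpha subunit of nutrient signalling (0.902), and *PXA2*, a peroxisomal fatty acid transporter (0.895). *XKS1* had 36.7 RPKM in laser irradiated cells at T15, against 10.2 RPKM in control cells, and 49.96 RPKM in laser irradiated and 47.20 RPKM in control cells at T0, a course like that of *AAD10*. *AAD3* had no match of that strength, and *FLR1*, a multidrug exporter and Yap1 target, came first (0.784), followed by *KIC1*, a kinase of cell morphogenesis (0.776), and the Ty element gene *YBL100W-B* (0.775).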

How the data were processed

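RNA of 24 libraries, 3 cultures in each of 8 groups, had been made with a stranded poly(A) kit, and the authors aligned the reads in SeqMan NGen 14.1.0 against the S288C genome and quantified them in ArrayStar 14.1.0. Of the deposited tables, the RPKM columns of single libraries were used, in which 0.021 stands for a gene without reads. Use of strand and treatment of reads with several places are not given in the sources used here. The deposited group means, fold changes (a ratio), t values (a score) and p-values of the authors were not used.

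The members and gene lists were chosen with earlier results of these data known. Genes with RPKM of at least 1 in at least 3 libraries were fitted on log2(RPKM + 1) by limma 3.58.1 in R 4.3.3 with a variance trend, per time point (6 libraries) or over 24 libraries, so folds of low genes are understated. Tests were two-sided and adjusted over all genes tested. Named were the members, up to 4 genes of smallest p per list at T15 and T30, neighbours, and the 3 genes most like each member with a median of at least 30 reads. *YPL088W* was added to these as the aldo-keto reductase of the list that was not called at T15 or T30. Neighbours with no value in the text enter its counts.

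Depth was recovered from RPKM steps (in each library 90.4% to 94.8% of low values came within 0.08 of whole reads, 16% by chance), and all 110 member values above 0.021 were whole within 0.16. Both mates of a pair may be counted, so intervals on reads cover counting error only. Same-numbered laser and control libraries come from 1 culture. Their deviations from group means correlated at −0.05 to 0.59 (9 of 12 over 0.1), against −0.61 to 0.30 for other pairs, so a fit with the culture as replicate block was an alternative. Others were median-ratio rescaling, pseudocounts of 0.1 and 5, no filter and leaving out libraries. The procedure was tested on simulated data. Sequences were read from RefSeq R64, to which 6083 of 6427 names matched, and aligned with Biopython 1.88 and MAFFT 7.526. Identity was computed on coding DNA because no protein sequences were used here. Python 3.11.15, NumPy 2.4.6, pandas 2.3.3, SciPy 1.17.1 and Matplotlib 3.10.9 were used.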

Additional observations from a re-analysis of the deposited data

Results flagged for a closer look

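The laser effect on 2 members differed between time points by the interaction test of limma. For *AAD4* it grew by 2.48 on the log2 scale between T0 and T15 and changed by −1.24 between T30 and T60, and for *AAD14* it grew by 1.07 between T0 and T15. The adjusted p-values were 3.15e-05, 0.0247 and 0.0246. Groups of 3 libraries were too small for a test of single outlying libraries. The part of reads shared with *AAD6* in the values of *AAD3*, *AAD4* and *AAD15*, and so in the family sum, was not tested.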

How the results depend on the processing

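Over 63 member results and 600 alternatives, 576 kept their side of the threshold, 15 lost a call, 9 gained one and none reversed a call. Among the 576 were 34 uncalled differences that changed sign. Most of the 63 results were uncalled in the main fit, and only a called one could lose a call. The 15 losses thus fall on the few called results, and 576 of 600 is not a measure of how firm the calls are. The call of *AAD14* held under 9 of 11 alternatives at T15 and 7 of 11 at T30. Its interaction from T0 to T15 held under 6 of 9. *AAD4* remained called higher at T15 and T30 under all 11 alternatives (2.25 to 2.71 and 1.67 to 2.12), with 38 reads or more behind each of these control values at T15. With median-ratio rescaling, and with a pseudocount of 5, the members called fell to 1 at T15 and to 1 at T30, *AAD4* alone, and rescaling also left 1 interaction from T0 to T15. A pseudocount of 0.1 and leaving out laser or control replicate 1 gave 3 members called at T15, with *AAD3* added, as did leaving out control replicate 3, with *AAD10* added. A pseudocount of 5 left 1 member called from T0 to T15 in laser irradiated cells. A pseudocount of 0.1 and leaving out control replicate 1 at T0, chosen after seeing the data, each gave 1 member, *AAD10*, called lower from T0 to T15 in control cells. Leaving out libraries gave 1 to 2 members called at T30 (1 without laser replicate 2 and without control replicate 3). Leaving out 1 replicate number gave 0 to 1 for control cells from T0 to T15 (1 without replicate 1), 1 to 2 for laser irradiated cells from T0 to T15, 0 to 1 for them from T30 to T60, 0 to 2 for interactions from T0 to T15 and 0 to 1 for interactions from T30 to T60. In laser irradiated cells and for interactions the 0 comes without replicate 2, and for the last also without replicate 3. The replicate block changed 1 call, the interaction of *AAD3* from T0 to T15 (3 members called against 2). Over all genes it called 135 higher and 49 lower at T60 against 11 and 3, 26 and 6 at T0 against 1 and 0, and 995 and 174 interactions from T0 to T15 against 283 and 18. Rescaling called 383 higher and 198 lower at T15 against 725 and 48, 473 and 119 at T30 against 621 and 72, and 28 and 18 at T60. The cause was not tested. Fits without a replicate number rest on 2 libraries a group, and without replicate 2 most calls over all genes were lost.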
